A study of Rattus norvegicus with 20 samples.

Results

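Rats given PMX53 after induction of infantile spasms were compared with rats that had neither prenatal steroid, nor spasms, nor drug, gene by gene, in the hypothalamic arcuate nucleus. The samples were taken by their group labels, and they are 8 of the 20 female samples analysed, 4 in each group. In the group codes the first letter gives the prenatal injection of the mother (S saline, B betamethasone), the second whether spasms were triggered (Y yes, N no), and the third the postnatal treatment (S saline, A ACTH, P PMX53). SNS rats were Sprague-Dawley females born to saline-injected mothers, with no trigger and only saline. BYP rats were females of the same strain and age whose mothers received betamethasone at 0.4 mg/kg, given 2 times on gestational day 15, and which had spasms triggered by N-methyl-D-aspartate (NMDA) on postnatal days 12, 13 and 15. The BYP labels place PMX53 on postnatal days 13, 14 and 15, and the study's methods start it a day earlier. All tissue was collected on postnatal day 15, each sample from 1 rat, and the labels do not say which rats were littermates. BYP therefore differed from SNS in steroid, NMDA and drug together, and these cannot be told apart in this comparison alone. For that reason the differences of 3 other groups of 4 from SNS are given beside those of BYP: BNS (betamethasone, no spasms), BYS (betamethasone, spasms, saline) and BYA (betamethasone, spasms, ACTH). All 4 differences share the same SNS samples.

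Betamethasone is a synthetic glucocorticoid that crosses the placenta and primes the pups for a higher sensitivity to NMDA, an agonist of an ionotropic glutamate receptor, which triggers flexion spasms. PMX53 is a cyclic peptide that blocks C5ar1, the receptor through which the complement fragment C5a attracts and activates microglia and leukocytes. The arcuate nucleus lies at the base of the hypothalamus beside the third ventricle, holds the neurons that make the feeding and reproductive peptides and also contains tanycytes, astrocytes and microglia.

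The 8 samples lay on 4 two-colour arrays, 1 rat per dye, with replicates 1 and 2 of a group on one array and replicates 3 and 4 on another. Both SNS arrays shared a slide and both BYP arrays another, so slide and condition cannot be told apart. The percentage of spots well above background was 51.6 to 74.9 in SNS (median 62.4) and 61.6 to 75.2 in BYP (median 68.4). In the groups given beside them the medians were 75.5 in BNS, 79.4 in BYS and 65.0 in BYA. The root mean square log2 distance between samples averaged 0.258 for SNS rats on the same array and 0.442 on different arrays, 0.323 and 0.395 for BYP rats, and 0.527 between a BYP and an SNS rat. Levels are background-corrected, quantile-normalized log2 intensities of a probe and compare groups within a gene, not one gene with another. The markers of the arcuate nucleus Pomc, Agrp, Npy and Cartpt were well above background in all 8 samples, whereas the pituitary hormone genes Gh1 and Prl did not pass the filter on dim probes. Another pituitary gene, Lhb, passed that filter through every group, SNS and BYP included, and Cga passed it through BNS and BYS. Since the tissue is a mixture, a lower level can reflect fewer cells of a type or less RNA per cell. These cannot be told apart here.

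With the normalization and the limit of nearness used here, more genes of BYP were near the SNS level than were called different from it. A gene was called different where limma's adjusted p was under 0.05, and near where the 95% interval of its log2 difference lay within 0.5 of 0. Of 17083 genes tested, 4940 (28.9%) were called, 2640 higher in BYP (15.5%) and 2300 lower (13.5%), whereas 7129 (41.7%) were near SNS. A further 5312 (31.1%) were neither near nor called, and 298 (1.74%) were both, being displaced by a small and precisely measured amount. Large differences were mostly rises: of 484 called genes (2.83%) more than 1 log2 unit from SNS, 416 were higher (2.44%) and 68 lower (0.398%). The median difference of all genes was −0.04. The balance depended on the processing: 53.4% of calls were higher in BYP, against 32.3% when every channel was brought to one median (median scaling) and 66.1% of the 2648 calls left with array as a random block. The order of the counts also turned: with median scaling, which gave an all-gene median of −0.11, fewer genes were near (1574) than called (4900), and a limit of nearness of 0.3 left 1601 near. The groups did not overlap in 4392 genes (25.7%), 12.8% with BYP higher and 12.9% with BYP lower. Against the same SNS samples, 4881 genes were called for BNS (28.6%), 4634 for BYS (27.1%) and 5343 for BYA (31.3%). Between BYP and BNS 257 genes were called (1.50%), 111 of them higher in BYP (0.650%), and between BYP and BYS 6 were called (0.0351%), with 1451 (8.49%) at an unadjusted p under 0.05.

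Among the genes farthest above SNS were chemokines, small secreted proteins that recruit leukocytes. Ccl3, released by activated microglia and macrophages, had log2 levels of 7.78, 7.81, 7.43 and 7.62 in the SNS samples and 12.48, 12.70, 13.37 and 11.64 in the BYP samples. All 4 BYP samples lay far above SNS. The fitted difference was 4.89 ± 0.80 (SE; limma adjusted p = 0.00024), but the probe was well above background in only 1 SNS rat, and with the processed signals the difference was 7.49. For BNS and BYA the differences from SNS were 0.07 and 3.68. In BYS it was 2.30, with levels of 7.79 and 7.91 in the 2 rats of one array and 12.04 and 12.08 in those of the other. BYP exceeded BNS by 4.82 (adjusted p = 0.00698), but not BYS beyond the test's threshold (2.59, adjusted p = 0.382). Ccl4, a closely related chemokine, was not well above background in any SNS sample (7.85, 7.58, 7.64 and 7.61) and stood at 10.38, 10.50, 10.82 and 9.68 in BYP. That is at least 6.38-fold higher, where the bound takes for each SNS array the higher of the lowest signal well above background and the probe's own. Ccl4 passed the filter on dim probes through BYP alone and so had to differ, which makes this a description. Cxcl10, an interferon-inducible chemokine, read 7.66, 7.41, 7.36 and 7.52 in SNS, again not well above background, and 8.85, 9.99, 11.11 and 8.60 in BYP. Its BYP samples were spread widely and still did not overlap SNS, at least 4.44-fold higher (adjusted p = 0.000823). It passed the filter through BYP and BYS, and not through SNS.

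These belong to a list of cytokine and NF-kB pathway genes, of which 35 of 45 passed the filter. In BYP 17 of the 35 (48.6%) were higher than SNS and none lower, by 0.44 to 4.89, and 7 (20%) were near, beside 15.5%, 13.5% and 41.7% of all genes. Of the 17, 10 had not passed the filter through SNS, 3 of them only through BYP. Of the 16 members bright in all SNS rats 7 were higher, beside 1626 of 11501 such genes in all. The list's median difference was 0.46 in BYP, 0.32 in BYS, 0.21 in BYA and 0.03 in BNS, against −0.04 over all genes in BYP. In BYP 6 of the 35 members were higher than in BNS, beside 0.650% of all genes. Nfkbib, an inhibitor of NF-kB, stayed near SNS in BYP (−0.02 ± 0.11) while 0.47 above its BNS level (adjusted p = 0.046). With median scaling 9 members of the list were higher, beside 1583 of all 17083 genes.

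**Figure D1:**
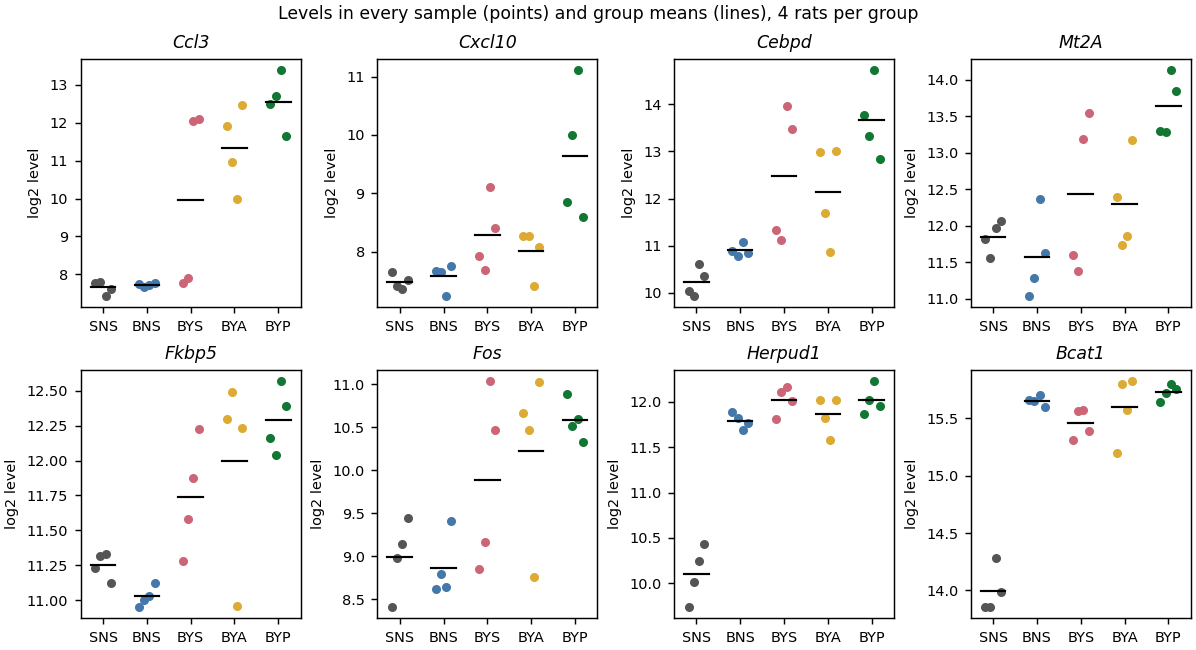
Log2 level (vertical axis) of 8 genes in every sample (points) and the group means (lines) for SNS, BNS, BYS, BYA and BYP, 4 rats each. Ccl3, Cxcl10, Cebpd, Mt2A, Fkbp5 and Fos lie in BNS at or close to the SNS level, apart from a mean difference of 0.67 for Cebpd, and have all 4 BYP rats high, whereas Herpud1 and Bcat1 are raised alike in BNS, BYS, BYA and BYP.

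Among the 10 genes with the largest rises that were bright in all 8 samples, 5 (Cebpd, Mt2A, Cebpb, Angptl4 and Junb) had their highest difference from SNS in BYP. For these 5 the BNS mean was within 0.5 of SNS, except for Cebpd (0.67). The 10 were picked on the difference of BYP from SNS, which favours BYP standing highest. None of the 5 was called between BYP and BYS. Cebpd, a transcription factor of the acute-phase response, stood at 10.03, 9.93, 10.61 and 10.35 in SNS and at 13.76, 13.33, 14.72 and 12.84 in BYP. It rose by 3.43 ± 0.57 (10.8-fold, adjusted p = 0.000266) and was 2.76 above BNS (adjusted p = 0.0218). BYS and BYA were also called above SNS, by 2.24 and 1.91 (adjusted p = 0.00764 and 0.0167). The BYS levels were 11.33, 11.12, 13.96 and 13.48, all above SNS. BYP was not called against BYS (adjusted p = 0.591) or BYA (adjusted p = 0.248). Cebpb, the partner of Cebpd, rose by 1.74 ± 0.48 (adjusted p = 0.0122), from 10.03 to 10.40 in SNS to 11.67 to 12.28 in BYP. For Cebpb, BNS, BYS and BYA differed from SNS by −0.19, 1.05 and 0.93, and the BNS rats were spread widely (SD 1.22). BYP was not called for it against BNS (1.93, adjusted p = 0.0513) or BYS (0.69, adjusted p = 0.77). Junb, a subunit of the AP-1 transcription factor, rose by 1.70 ± 0.47 (adjusted p = 0.0117). Mt2A, a zinc-binding metallothionein, had levels of 11.82, 11.56, 11.97 and 12.06 in SNS and 13.29, 13.29, 14.13 and 13.85 in BYP. It rose by 1.79 ± 0.43 (adjusted p = 0.00518) and Angptl4, an inhibitor of lipoprotein lipase, by 1.74 ± 0.40 (adjusted p = 0.00375). In BNS these 2 genes differed from SNS by −0.28 and −0.26, and BYP exceeded BNS for both (adjusted p = 0.0235 and 0.0197). For Mt2A, BYS and BYA differed from SNS by 0.58 and 0.44, and BYP was not called against BYS (1.21, adjusted p = 0.429). Without BYP replicates 1 and 2, or 3 and 4, the differences of Cebpb (1.73 and 1.75, adjusted p = 0.0627 and 0.0538) and Junb (1.74 and 1.66, adjusted p = 0.0551 and 0.0517) were about as large but no longer called. Mt2A also lost its call without replicates 3 and 4 (1.44, adjusted p = 0.0685), and Junb with median scaling (1.21, adjusted p = 0.0578). With the processed signals neither Cebpb (1.72, adjusted p = 0.0802) nor Junb (1.43, adjusted p = 0.0564) was called. Leaving out SNS replicates 1 and 2 ended the calls of Cebpb (1.77, adjusted p = 0.0509) and Junb (1.45, adjusted p = 0.0897), and leaving out SNS replicates 3 and 4 that of Cebpb (1.71, adjusted p = 0.0508).

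The other 5 were raised in every betamethasone group by a similar amount. Herpud1, which helps remove misfolded proteins from the endoplasmic reticulum, had levels of 9.74, 10.01, 10.24 and 10.43 in SNS and 11.87, 12.02, 12.23 and 11.95 in BYP. The groups were more than 1 log2 unit apart and the difference was 1.91 ± 0.14 (3.75-fold, adjusted p = 7.59e-08), beside 1.68 in BNS, 1.91 in BYS and 1.75 in BYA. Bcat1, the cytosolic branched-chain aminotransferase, rose by 1.73 ± 0.12 from 13.86, 13.86, 14.28 and 13.98 in SNS to 15.64, 15.72, 15.80 and 15.76 in BYP (adjusted p = 7.59e-08), with 1.65 in BNS. Sult1a1, a phenol sulfotransferase, rose by 2.04 ± 0.24 (1.66 in BNS), Serping1, the inhibitor of the first complement component, by 1.84 ± 0.25 (1.65 in BNS) and the ribosomal protein gene Rps20 by 1.62 ± 0.24 (1.87 in BNS). For none of these 5 was BYP called against BNS, where the differences lay between −0.25 and 0.37. All were called in every run that left out 1 sample.

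**Figure D2:**
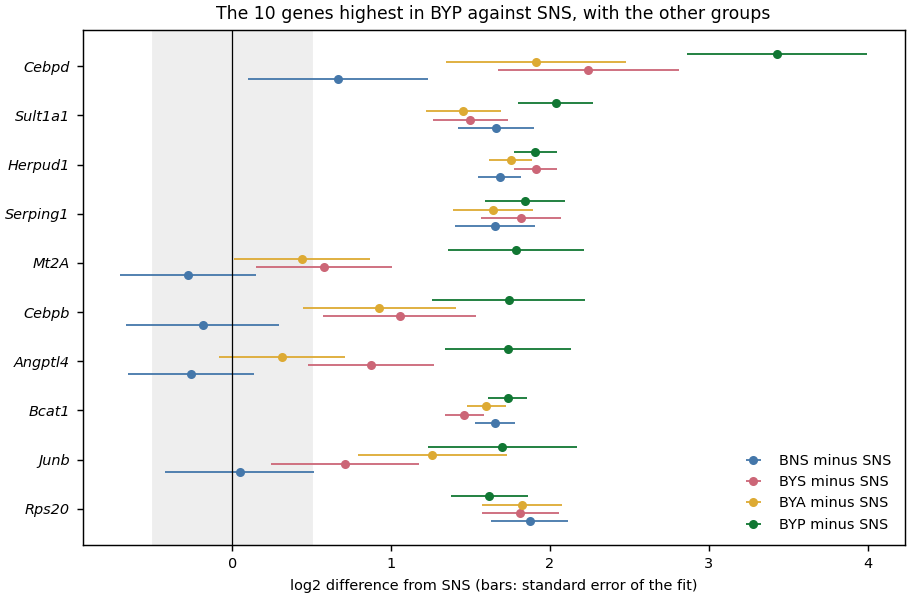
Log2 difference from SNS (horizontal axis) of the 10 genes with the largest rises in BYP that were well above background in all 8 samples, as fitted values with their standard errors for BNS, BYS, BYA and BYP. The grey band marks differences within 0.5, and the vertical line at 0 is the SNS level shared by all 4 differences. In Sult1a1, Herpud1, Serping1, Bcat1 and Rps20 the 4 groups lie together, and in Cebpd, Mt2A, Cebpb, Angptl4 and Junb BYP lies to the right, with BNS inside the band except for Cebpd at 0.67.

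Of the 10 largest rises, Cebpb and Junb had their level highest in BYP, and Herpud1 was raised in every betamethasone group. Promoters are shown for these 3, the rises whose first listed promoter held the motif marked below. They are RefSeq sequences of the rat assembly GRCr8, 300 bases long, reaching from upstream to shortly past the transcription start, written 5′ to 3′ on the gene's strand. Capitals mark TGACG on either strand (CGTCA on the other), the core of the cAMP response element bound by Creb and Atf factors. Cebpb lies at chr3:176816755-176817054 on the plus strand, Junb at chr19:40080876-40081175 on the plus strand and Herpud1 at chr19:10614658-10614957 on the minus strand.
Cebpb: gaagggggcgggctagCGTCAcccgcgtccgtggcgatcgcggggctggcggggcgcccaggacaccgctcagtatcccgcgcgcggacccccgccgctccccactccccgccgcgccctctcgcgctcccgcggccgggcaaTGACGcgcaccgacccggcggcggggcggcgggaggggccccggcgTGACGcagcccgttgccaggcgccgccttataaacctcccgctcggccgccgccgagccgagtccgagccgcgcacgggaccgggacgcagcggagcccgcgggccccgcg
Junb: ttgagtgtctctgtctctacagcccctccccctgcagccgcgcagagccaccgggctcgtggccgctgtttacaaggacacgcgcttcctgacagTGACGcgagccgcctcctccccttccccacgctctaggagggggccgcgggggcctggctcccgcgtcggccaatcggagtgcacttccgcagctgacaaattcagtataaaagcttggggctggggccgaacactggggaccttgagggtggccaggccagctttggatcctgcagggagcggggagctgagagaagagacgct
Herpud1: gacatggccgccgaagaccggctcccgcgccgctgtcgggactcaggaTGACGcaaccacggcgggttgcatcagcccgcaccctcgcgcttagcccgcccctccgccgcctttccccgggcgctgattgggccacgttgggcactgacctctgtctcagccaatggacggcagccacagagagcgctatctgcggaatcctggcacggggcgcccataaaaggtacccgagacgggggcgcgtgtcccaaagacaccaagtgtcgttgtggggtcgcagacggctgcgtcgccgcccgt
Cebpb held 3 matches, and Junb and Herpud1 1 each. The promoters of Sult1a1, Mt2A and Angptl4 and the first of Bcat1, not shown, held none. Of the 10 largest rises, 7 had a promoter in the table, of which 3 held TGACG in the first promoter listed, beside 6 of 9 among the 10 largest falls and 21.2% of all 33469 promoters. AGAACA, 1 arm of a glucocorticoid response element, was in 2 of 7, in 2 of 9 and in 20.7% of all. A second promoter listed for Bcat1, not counted here, also held TGACG. The heat shock core GAANNTTC and the unfolded protein response element were in neither set, beside 8.59% and 0.0657% of all promoters. The unfolded protein response element was searched in only 1 long form, and shorter or differently spaced forms were not looked for. Its absence, in Herpud1 too, holds for that form alone. A match is a run of letters and no evidence of binding.

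Genes of the glucocorticoid response, many of which carry binding sites for the receptor Nr3c1, were measured for 28 of 33 listed. In BYP 10 were higher than SNS, 2 lower and 6 near (35.7%, 7.14% and 21.4%, beside 15.5%, 13.5% and 41.7% of all genes), with a list median of 0.20 beside 0.23 in BYS, 0.22 in BYA and 0.04 in BNS. Fkbp5, a chaperone partner that lowers the receptor's affinity, had levels of 11.23, 11.32, 11.33 and 11.12 in SNS and 12.16, 12.04, 12.57 and 12.39 in BYP. The groups did not overlap and the difference was 1.04 ± 0.24 (2.06-fold, adjusted p = 0.00427). BNS lay 0.22 below SNS (−0.22), BYS 0.49 and BYA 0.75 above it, and BYP was 1.26 above BNS (adjusted p = 0.0167). Klf9, a glucocorticoid-induced transcription factor, rose by 1.33 ± 0.17 (adjusted p = 2.98e-05), with 0.39 in BNS and 1.13 in BYA and 1 SNS value missing as an outlier spot. Cdkn1a, the cell cycle inhibitor p21, rose by 1.38 ± 0.30 (adjusted p = 0.00271), although its second probe differed by only −0.13. Lcn2, which binds bacterial iron carriers and is made by reactive astrocytes, rose by 1.60 ± 0.30 (adjusted p = 0.000902). Of the 10 higher members 2, Lcn2 among them, had not passed the filter through SNS. The list's members higher in BYP than in BNS numbered 6 of 28, beside 0.650% of all genes. The receptor Nr3c1 itself differed by 0.23 ± 0.09, short of the threshold (adjusted p = 0.0533). Fkbp5 lost its call with median scaling (0.56, adjusted p = 0.122) and without the array of BYP replicates 3 and 4 (adjusted p = 0.0551).

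Immediate early genes, transcribed within minutes of neuronal activity, were higher in 12 of the 27 measured and lower in 1, with 3 near (44.4%, 3.70% and 11.1%, beside 15.5%, 13.5% and 41.7% of all genes) and a median of 0.56 in BYP, 0.49 in BYA, 0.32 in BYS and −0.04 in BNS. Fos, an AP-1 subunit used as a marker of recent activity, had levels of 8.41, 8.98, 9.14 and 9.44 in SNS and 10.89, 10.51, 10.60 and 10.33 in BYP. No BYP rat was as low as any SNS rat, and the difference was 1.59 ± 0.44 (adjusted p = 0.0128). Egr4, a zinc finger factor of the same class, rose by 1.87 ± 0.44 (adjusted p = 0.00451) and Ier2 by 1.11 ± 0.25 (adjusted p = 0.00368). Homer1, a scaffold of postsynaptic glutamate receptors with an activity-induced short form, and Btg2, an anti-proliferative factor, stayed near SNS at −0.00 ± 0.10 and 0.03 ± 0.17. The last NMDA dose fell on the day of tissue collection in BYP, BYS and BYA, and not in SNS or BNS. With median scaling 2 of the 27 members were higher, beside 1583 of all 17083 genes. With array as a random block 6 were higher, beside 1750 of all genes. Of the 12, 6 had not passed the filter through SNS, Fos and Egr4 among them. Of the 18 members bright in all SNS rats 6 were higher, beside 1626 of 11501 such genes in all. Fos lost its call without BYP replicates 1 and 2 (1.47, adjusted p = 0.0786) and without SNS replicates 1 and 2 (1.29, adjusted p = 0.1065).

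Stress genes of the heat shock and unfolded protein responses were higher in 14 of 29 and lower in 2, with 4 near (48.3%, 6.90% and 13.8%, beside 15.5%, 13.5% and 41.7% of all genes), and a median of 0.44 in BYP, 0.30 in BYS, 0.12 in BYA and 0.09 in BNS. Beside Herpud1, the most significant rises were in Ddit3, a transcription factor of endoplasmic reticulum stress, and its upstream activator Atf4. Ddit3 had 11.10, 11.25, 11.43 and 11.54 in SNS and 12.53, 12.98, 12.76 and 12.47 in BYP, a rise of 1.36 ± 0.13 (adjusted p = 1.57e-06) beside 1.02 in BNS, 1.06 in BYS and 1.15 in BYA. Atf4 rose by 0.75 ± 0.11, beside 0.35, 0.48 and 0.39, and Xbp1, another factor of the response, by 0.67 ± 0.12, beside 0.63, 0.66 and 0.52. The list was sensitive to scaling: with median scaling its median was 0.04. Of its 29 members 3 were then higher and 6 lower, beside 1583 and 3317 of all 17083 genes. Herpud1 and Ddit3 kept their calls there (1.48 and 0.87), and Atf4 (0.19, adjusted p = 0.629) and Xbp1 (0.24, adjusted p = 0.4) did not. With the processed signals Xbp1 differed by 0.01 (adjusted p = 0.967).

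The drug's target, C5ar1, was near SNS in BYP at 0.01 ± 0.13, but at log2 levels of 7.63 to 8.2 in SNS and 7.74 to 8.00 in BYP it was well above background in only 1 SNS and 2 BYP rats. Its ligand precursor C5 and the second receptor C5ar2 did not pass the filter. Of the complement list 24 of 36 genes did, of which 8 were higher in BYP and none lower, with 7 near (33.3% and 29.2%, beside 15.5% and 41.7% of all genes) and a median of 0.26 (0.32 in BYS, 0.13 in BYA, 0.09 in BNS). Cfb, the factor B of the alternative pathway, had levels of 8.13, 8.15, 9.09 and 8.67 in SNS and 9.35, 9.81, 10 and 9.96 in BYP. It rose by 1.26 ± 0.26 (adjusted p = 0.00154), beside 0.96 in BNS, and C4a, of the classical pathway, by 0.72 ± 0.15 (adjusted p = 0.00225). Of the 8 higher complement genes 3, Cfb among them, had not passed the filter through SNS. No complement gene was called between BYP and BNS, where only 1.50% of all genes were called. With array as a random block 5 members were higher, and with median scaling 4, beside 1750 and 1583 of all 17083 genes.

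Microglial genes moved in both directions. Of 23 there were 5 higher, 2 lower and 5 near (21.7%, 8.70% and 21.7%, beside 15.5%, 13.5% and 41.7% of all genes). P2ry12, a purine receptor of resting microglia, had levels of 11.22, 11.53, 11.35 and 11.39 in SNS and 10.66, 10.14, 9.87 and 10.92 in BYP, a fall of 0.98 on the log2 scale (−0.98 ± 0.19, adjusted p = 0.00109). The fractalkine receptor Cx3cr1 fell by 0.61 (−0.61 ± 0.16, adjusted p = 0.00911), less than in BYS (−1.22) and close to BNS (−0.73), though BYP was called against neither. The microglial calcium-binding protein Aif1 and the growth factor receptor Csf1r stayed near at −0.01 ± 0.13 and 0.03 ± 0.12. Of 20 astrocyte genes 5 were higher (25%, beside 15.5% of all genes) and none lower. Gfap, the astrocyte filament protein, rose by 0.86 ± 0.30 (adjusted p = 0.0392), but its probes gave 0.54 and 1.17 and it stayed called in only 2 of the 8 runs that left out 1 sample. With median scaling 1 microglial gene was higher and 3 were lower, beside 1583 and 3317 of all 17083 genes. The astrocyte median turned from 0.24 to −0.18.

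Marker sums of several cell types differed between the groups without overlap, but the per-sample medians of the same lists overlapped. With each member centred on its SNS mean, the median of the neuronal markers was −0.21 to 0.16 in SNS and −0.06 to 0.29 in BYP. The neuronal list's median difference went from 0.10 to −0.47 with median scaling. A marker sum is the log2 of the summed intensities of a list, so its brightest genes weigh most, and missing values add nothing. For 17 neuronal markers it was 17.44 to 18.15 in SNS and 18.23 to 18.60 in BYP. Of these markers 3 were higher and 2 lower (17.65% and 11.76%), close to the 15.5% and 13.5% of all genes. The sum of 20 astrocyte genes was 17.05 to 17.50 and 17.66 to 17.77, and that of 23 microglial genes 15.72 to 15.90 and 16.09 to 16.43. Genes of the choroid plexus, the tissue that secretes cerebrospinal fluid, summed to 12.31 to 13.04 in SNS and 11.53 to 11.98 in BYP over 6 genes, and those of red blood cells to 17.21 to 17.49 and 16.86 to 17.16 over 9. Ttr, the defining choroid plexus transcript, differed by −1.27 (adjusted p = 0.0584). The sums of 18 genes of neighbouring hypothalamic nuclei overlapped, at 16.67 to 17.05 and 16.69 to 17.11. Their part in the differences above was not tested. The globin gene Hba-a1 stayed near SNS in BYP (−0.02 ± 0.14) and lay 0.73 below BNS (−0.73, adjusted p = 0.0187). It was the only one of the 9 red blood cell genes called in that comparison, beside 1.50% of all genes.

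The peptides that define the arcuate nucleus did not move together. Of 15 arcuate peptide and hormone genes 1 was higher, 1 lower and 3 near (6.67%, 6.67% and 20%, beside 15.5%, 13.5% and 41.7% of all genes), with a median of −0.09 beside −0.16 in BYS, −0.15 in BNS and −0.09 in BYA. Cartpt, an appetite-suppressing peptide, had levels of 13.82, 13.41, 13.02 and 13.57 in SNS and 13.33, 13.20, 13.52 and 13.58 in BYP. The groups overlapped and the difference was −0.05 ± 0.18. Galanin (Gal) and the growth hormone releasing hormone Ghrh were also near, at 0.02 ± 0.16 and −0.09 ± 0.17. Pomc, precursor of the melanocortins, read 14.30, 14.60, 15.08 and 14.76 in SNS and 14.23, 13.98, 15.30 and 14.01 in BYP. One BYP rat was above all SNS rats and the others below them, and the difference of −0.30 had an interval from −0.87 to 0.27, so it was neither called nor near. The appetite-stimulating Agrp (0.29, −0.53 to 1.1) and Npy (−0.49, −1.06 to 0.08) and the reproductive peptides Kiss1 (−0.32, −0.77 to 0.13) and Tac3 (−0.52, −1.09 to 0.05) were undecided in the same way. Tyrosine hydroxylase (Th), the first enzyme of dopamine synthesis, differed by 0.42 ± 0.19 (adjusted p = 0.104), and Ddc, the next enzyme, fell by 0.36 (−0.36 ± 0.11, adjusted p = 0.0177). Nucb2, precursor of nesfatin, rose by 0.71 ± 0.19 (adjusted p = 0.00994), beside 0.96 in BNS. Several of these genes moved with scaling. With median scaling Pomc (−0.90, adjusted p = 0.0303), Npy (−1.05, adjusted p = 0.0122) and Tac3 (−1.09, adjusted p = 0.0107) were called lower, Nucb2 was not called (0.37, adjusted p = 0.332), Cartpt stood at −0.62, Gal at −0.56, and the list's median at −0.56.

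**Figure D3:**
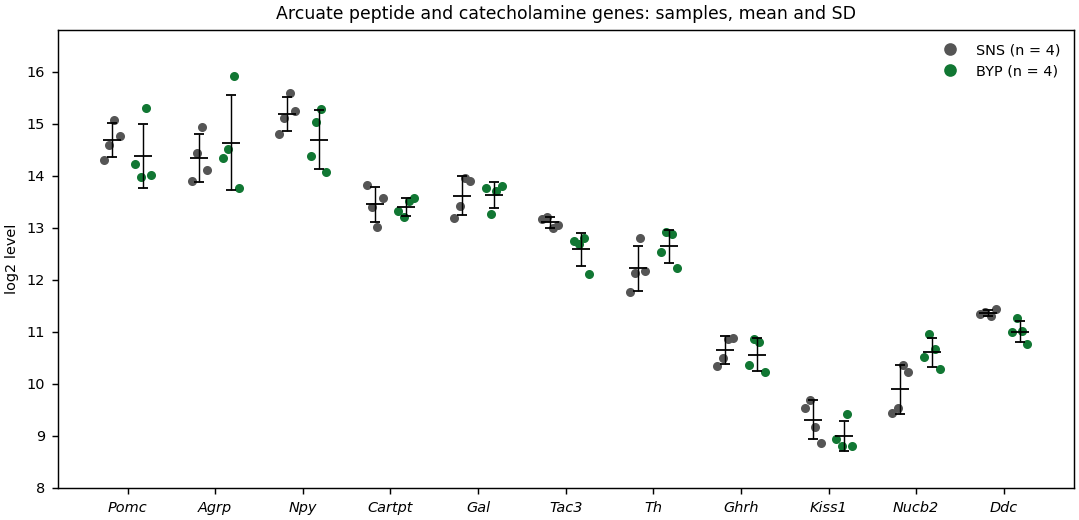
Log2 level (vertical axis) of 11 arcuate peptide and catecholamine genes in the SNS and BYP samples (points), with the mean and SD of 4 rats each. The groups overlap in 9 of the 11, Tac3 and Ddc being the exceptions with all 4 BYP rats below all 4 SNS rats. Such a separation was found in 12.9% of all genes, and Tac3 was not called (limma adjusted p = 0.152). In Agrp and Pomc 1 BYP rat stands above the other samples.

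Of 21 arcuate receptors and transcription factors 2 were higher, 3 lower and 8 near, shares (9.52%, 14.3% and 38.1%) not far from those of all genes (15.5%, 13.5% and 41.7%). Dlx1, a factor of inhibitory neurons, rose by 0.68 ± 0.15, beside 0.89 in BNS, and was not called with median scaling (0.25, adjusted p = 0.438), with the processed signals (0.47, adjusted p = 0.0648) or without SNS replicates 3 and 4 (adjusted p = 0.0554). Near SNS were 16 of 36 genes of the GABA synapse and 28 of 52 of the glutamate synapse (44.4% and 53.8%), beside 41.7% of all genes. Gabrb1, a subunit of the GABA-A receptor, had levels of 11.15 and 11.11 in the 2 SNS rats of one array, the other 2 being lost as outlier spots, and 13.22, 13.24, 12.78 and 13.17 in BYP. It rose by 1.97 ± 0.19 (adjusted p = 2.49e-06), beside 1.70, 1.93 and 1.88 in BNS, BYS and BYA. The GABA list had 6 members higher and 4 lower (16.7% and 11.1%, close to the 15.5% and 13.5% of all genes) and a median of 0.01. With array as a random block it had 3 higher and 2 lower, beside 1750 and 898 of all 17083 genes. The glutamate list had 4 higher and 1 lower (7.69% and 1.92%), and a median of −0.01.

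Genes of the ribosome and the respiratory chain had medians slightly below 0, with some members far above SNS. Of 96 cytosolic ribosomal protein genes 12 were higher, 19 lower and 38 near (12.5%, 19.8% and 39.6%, median −0.16), and of 81 respiratory chain genes 10 were higher, 13 lower and 37 near (12.3%, 16.1% and 45.7%, median −0.12), beside 15.5%, 13.5% and 41.7% of all genes. Rpl7a rose by 1.53 ± 0.19 (adjusted p = 1.27e-05), with the SNS rats of one array at 13.65 and 13.56, those of the other at 12.72 and 12.45, and all BYP rats between 14.50 and 14.75. BNS differed from SNS by 1.57 for this gene. Probes of ribosomal protein genes can also bind transcripts of near-identical copies. With median scaling 3 ribosomal genes were higher and 50 lower (median −0.73), and 2 and 35 respiratory genes (median −0.68). Over all 17083 genes 1583 were higher and 3317 lower with that scaling.

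**Figure D4:**
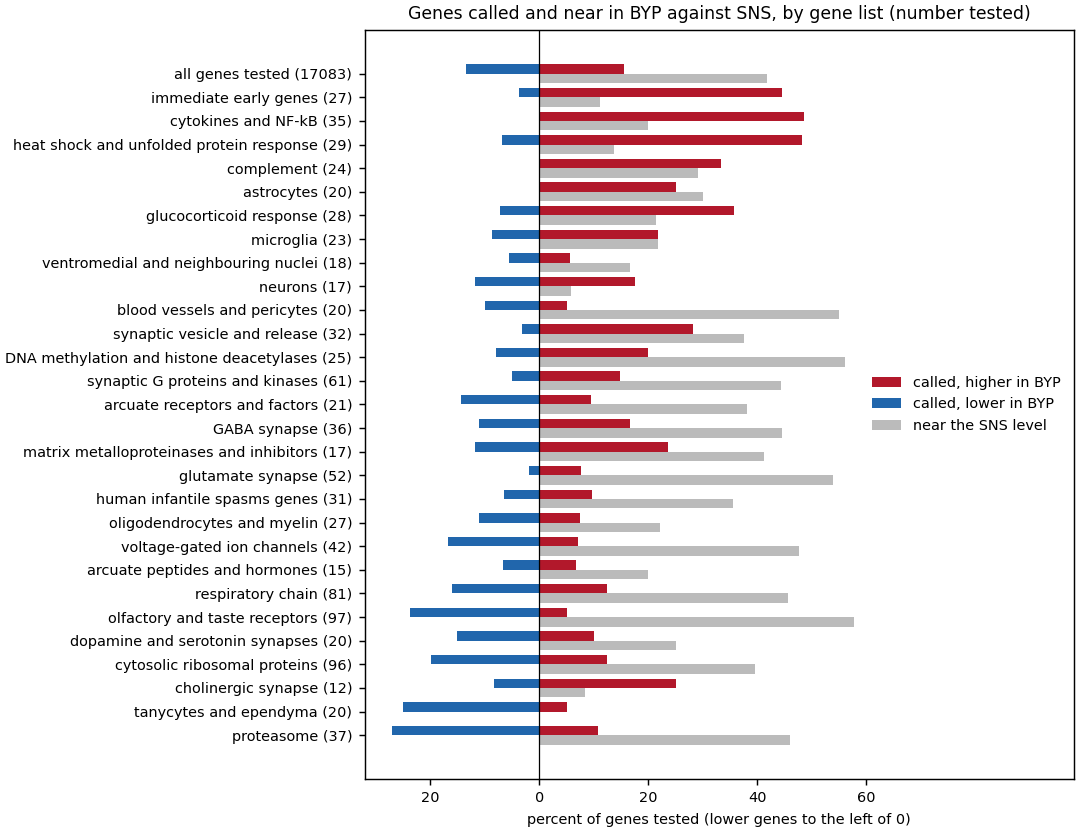
Percentage of the tested genes of each list (number in brackets) called higher in BYP than SNS, called lower (drawn to the left of 0) and near the SNS level. Over all 17083 genes the bars stand at 15.5%, 13.5% and 41.7%. The cytokine list reaches 48.6% higher and the glutamate synapse list 53.8% near.

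The 10 largest falls looked different from the 10 largest rises: most rested on 1 of the 2 BYP arrays. Rps27, a ribosomal protein gene, had levels of 16.04, 16.18, 16.29 and 16.06 in SNS and 11.27, 13.06, 15.74 and 15.64 in BYP. The first 2 BYP rats, which shared an array, were far lower than the others, and the difference was −2.21 ± 0.62 (adjusted p = 0.0136). Without that array it was −0.45 (adjusted p = 0.0108). A second Rps27 probe, left out because of missing values, differed by only −0.26 (adjusted p = 0.0831). Gorasp1, a Golgi stacking protein, showed the reverse, with 13.44, 13.44, 13.51 and 13.60 in SNS and 13.09, 13.16, 9.41 and 9.96 in BYP. Its difference was −2.09 ± 0.58 (adjusted p = 0.0124), and −0.38 without BYP replicates 3 and 4 (adjusted p = 0.0348). Coro1b, an actin-binding protein, differed by −1.41 ± 0.39 and by −0.28 without BYP replicates 1 and 2 (adjusted p = 0.18), the open reading frame C12h7orf50 by −1.49 ± 0.42 and −0.28 (adjusted p = 0.0987), and the cell cycle regulator Rb1 by −1.28 ± 0.34 and −0.42 (adjusted p = 0.155). Nt5c3a, a pyrimidine nucleotidase, differed by −1.33 ± 0.35 and by −0.48 without BYP replicates 3 and 4 (adjusted p = 0.207).

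The others were less divided between arrays, except Lyplal1. Pdia3, a disulfide isomerase of the endoplasmic reticulum, had 12.06, 12.47, 11.86 and 11.92 in SNS and 10.03, 10.14, 11.36 and 11.35 in BYP. All BYP rats were lower, and the fall of 1.36 (−1.36 ± 0.27, adjusted p = 0.00148) came to −0.73 without replicates 1 and 2 (adjusted p = 0.0135). BNS, BYS and BYA differed from SNS by −0.09, −0.02 and −0.47. Cfap161, a protein of cilia, was lower by −1.36 ± 0.25 (adjusted p = 0.000802), and Lyrm2, a mitochondrial protein, by −1.14 ± 0.18 (adjusted p = 0.00013), with 11.90, 11.71, 11.97 and 12.39 in SNS and 11.18, 10.76, 10.65 and 10.80 in BYP. For Lyrm2 both arrays gave a fall, −1.26 and −1.02 with the other left out, beside −0.52 in BNS and −0.81 in BYS. Lyplal1, a lysophospholipase-like enzyme, rested on 1 rat, with 9.64 in BYP replicate 1 and 11.92 to 12.38 in the others. Of all 68 called genes more than 1 lower in BYP, 42 (61.8%) had BYP array means more than 1 apart, beside 5 of the 416 more than 1 higher (1.2%) and 215 of all 17083 genes (1.26%). The cause of these array differences was not tested.

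**Figure D5:**
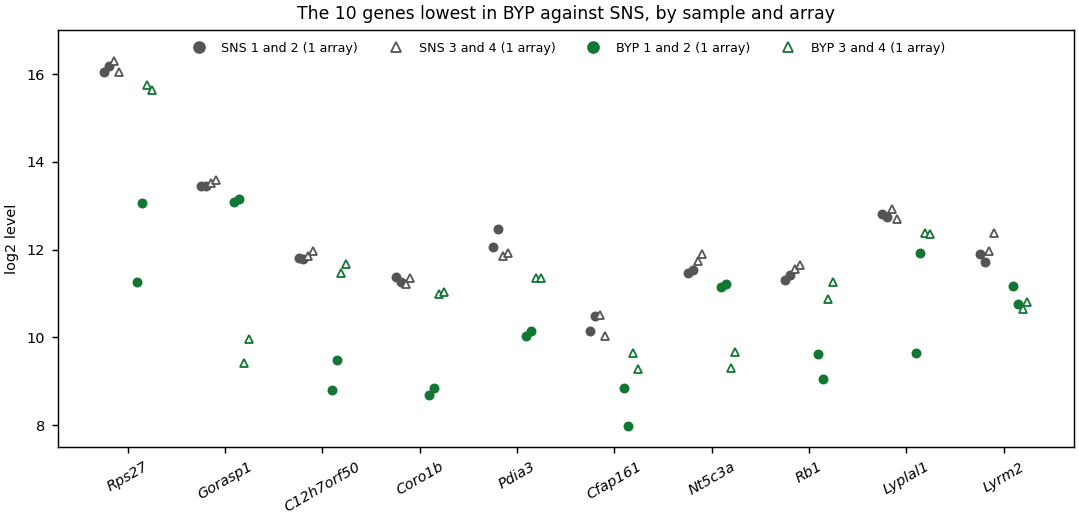
Log2 level (vertical axis) of the 10 genes with the largest falls in BYP, in each SNS (grey) and BYP (green) sample, with filled circles for the array of replicates 1 and 2 and open triangles for that of replicates 3 and 4. In Rps27, C12h7orf50, Coro1b and Rb1 the BYP circles are far below the triangles, in Gorasp1 and Nt5c3a the reverse holds, and in Lyrm2 the 4 BYP rats lie together.

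Only 6 of 17086 genes were called between PMX53-treated and saline-treated rats with spasms. One lay far from SNS in BYP alone: Mcf2l, a guanine nucleotide exchange factor of small GTPases. It had 9.04, 8.98, 9.08 and 8.68 in SNS and 7.92, 8.09, 8.17 and 8.23 in BYP. It fell by 0.84 (−0.84 ± 0.11, adjusted p = 4.47e-05), whereas BNS, BYS and BYA differed from SNS by −0.12, −0.09 and −0.10. BYP was lower than BYS by −0.75 (adjusted p = 0.0139), than BNS by −0.72 (adjusted p = 0.00569) and than BYA by −0.74 (adjusted p = 0.0237). Its 3 probes differed in size, with −1.44, −0.29 and −0.78, and with median scaling it was not called (−0.40, adjusted p = 0.0644).

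The other 5 were near SNS in BYP and away from it in BYS. The clearest was an unnamed transcript, probe A_64_P143316, with 10.66, 10.78, 10.95 and 10.63 in SNS, 10.46, 10.50, 10.67 and 10.59 in BYP and 9.64, 9.66, 9.72 and 9.83 in BYS. BYP lay 0.84 above BYS (adjusted p = 0.00186) and −0.20 ± 0.10 from SNS, while BNS, BYS and BYA differed from SNS by −0.93, −1.04 and −0.94. A second unnamed probe, A_64_P130249, repeated this at −0.03 ± 0.11 in BYP beside −0.76, −0.84 and −0.76, and BYP was 0.81 above BYS (adjusted p = 0.0062). Dgat2l6, of the diacylglycerol acyltransferase family, was dim, with 7.57, 7.97, 7.65 and 8.01 in SNS and 7.61, 7.97, 7.54 and 7.95 in BYP. It differed from SNS by −0.03 in BYP and by 0.77 in BNS and 0.61 in BYS, and BYP was 0.64 below BYS (−0.64, adjusted p = 0.00398). The taste receptor gene Tas2r110 and probe A_64_P095208 were not well above background in any SNS or BYP sample, so their nearness is that of undetected probes. Both passed the filter through BYS alone, and Dgat2l6 through BNS and BYS. A median of 79.4% of spots was well above background in BYS and 75.5% in BNS, against 62.4% in SNS and 68.4% in BYP. The part of this in the differences of dim probes was not tested. With median scaling A_64_P143316 (−0.59, adjusted p = 0.0135) and Dgat2l6 (0.52, adjusted p = 0.0328) were called different from SNS, and A_64_P130249 stood at −0.45 (adjusted p = 0.0857). No gene of the cytokine, glucocorticoid, immediate early, stress, complement or synaptic lists described above was called between BYP and BYS.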

How the data were processed

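RNA from the arcuate nucleus was hybridized on Agilent 4x44k rat arrays, 1 rat per dye. Per the file headers, Feature Extraction 11.5.1.1 (10.7.3.1 in the labels) gave each spot's mean and local background intensity, the intensities used here. The authors also deposited processed intensities, background-subtracted and dye-normalized within arrays by that software, used only as an alternative, and 0 or 1 marks for outlier spots and spots well above background. Spots marked as outliers (1.185% of values) were dropped. The array annotation is on rn4, and no coordinates of it were used; 18643 of 30367 probes (61.39%) were matched to a RefSeq transcript of GRCr8. In limma 3.58.1 (R 4.3.3), intensities were background-corrected (normexp, offset 50) and quantile-normalized over 20 channels. Probes entered the fit where, in each of the 4 samples of some group, 0.5 or more of the spots stood well above background, so a gene could pass through the group where it was bright. Probes of a gene were averaged, leaving out one with missing values where another had none. A model with group and dye was fitted to all 20 samples, with Benjamini-Hochberg adjustment, a threshold of 0.05 and moderated t-statistics. Intervals are at 95%. There were 17083 testable genes among 17086, 3 not being estimable against SNS. The number of arrays limits the precision.

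Named genes were the 10 largest rises and falls that were bright in all 8 samples with groups that did not overlap, the most significant and the brightest near members of each list, a fixed set of receptors, peptides and markers, and genes called between BYP and BYS. Ttr and the marker sums came from lists of cell type markers. Some genes that the rule picks are not reported here. The comparison, its members, the named genes and the lists were chosen with earlier results of these data known. Alternatives varied scaling, background, filter, probes, samples and blocks. The fit was tested on simulated data. Same-numbered SNS and BYP replicates deviated together with correlations of only −0.035 to 0.116, so the numbers were not taken as pairs. In all, 82 columns belong to another series and were not used. Of BYA replicate 3, which enters only the side values, the array channel was read from the dye label.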

Additional observations from a re-analysis of the deposited data

Results flagged for a closer look

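In 13 of 271 groups of 4 samples checked, 1 sample stood apart, with a gap to its nearest neighbour, as a share of the group's range, above Dixon's 95% critical value. Chance alone passes about as large a share of groups. The gap as a share of the range is given in brackets. In SNS these were Rps20 (0.898, replicate 1 low at 12.89), Ikbkb (0.977, replicate 3 low), Dusp6 (0.893, replicate 1 high), Gabra3 (0.837, replicate 4 low), Gja1 (0.86, replicate 4 high) and Ndufa10l1 (0.858, replicate 2 high). In BYP they were Lyplal1 (0.831, replicate 1 low at 9.64), Gal (0.84, replicate 2 low at 13.26), Dlx1 (0.872, replicate 3 high), Hspd1 (0.834, replicate 2 high), Gabrb1 (0.85, replicate 3 low at 12.78), Rpl22l2 (0.905, replicate 2 low at 12.03) and Atp5hl1 (0.904, replicate 2 high).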

How the results depend on the processing

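The comparison drew on 4 arrays, and the counts depended on how array and scale were treated. With every channel brought to one median (median scaling), 4900 genes were called (1583 higher, 3317 lower), and 1574 were near. The processed signals gave 2791 calls (1559 higher, 1232 lower, 3565 near) after 75th percentile scaling and 2719 (1574, 1145, 3451) after quantile normalization. Array as a random block (correlation 0.365) left 2648 calls (1750 higher, 898 lower), and a fit of only the 8 samples 3153 (1832 higher, 1321 lower). Without a filter 15107 genes were near, and with the probe well above background in all 8 samples 1587 were higher, 1748 lower and 3721 near. A limit of 0.3 left 1601 near. The methods' t-test called 5601 genes unadjusted (2650 higher, 2951 lower), 5482 with the fold cut-off (2612, 2870) and 2019 after Benjamini-Hochberg adjustment (1175 higher, 844 lower). Leaving out 1 sample gave 4099 to 4527 calls, 2243 to 2596 higher, 1699 to 1963 lower and 6311 to 6772 near. Without 1 array, an alternative chosen after seeing the data, 1932 genes were higher and 1446 lower without BYP replicates 1 and 2, and 1971 and 1513 without 3 and 4. With the replicate block 5178 were called (2762 higher, 2416 lower, 7377 near). Same-numbered replicates correlated at −0.035, −0.0253, 0.116 and 0.0275.

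The 10 largest rises were all called with array as a block and in every run without 1 sample, 9 with median scaling, 8 without BYP replicates 1 and 2, and 7 without 3 and 4. Of the 10 largest falls these counts were 9, 6, 10, 6 and 9, and of 71 called list genes 50, 53, 42, 47 and 56. Signs turned for Kiss1r (0.11 and 0.053 with processed signals, percentile and quantile), Nhlh2 (0.16), Laptm5 (−0.084), Slc6a12 (0.12) and Gria4 (−0.063) with median scaling, Slc6a12 (0.20) with processed signals quantile-normalized, C8g (−0.28) with outlier spots kept, Slc12a2 (−0.027) with the filter on all 8 samples and with the brightest probe, and Gria4 (−0.21) with the brightest probe. The cause was not tested.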
